A study of Mus musculus with 16 samples.

Results

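Type 1 conventional dendritic cells (cDC1) were examined among CD45+ cells sorted from mouse tumors before and after radiation. The members were selected on unique molecular identifiers (UMIs, one per captured transcript) in the deposited matrices. A barcode needed 500 or more detected genes, with mitochondrial transcripts giving no more than 10% of its UMIs. It also needed at least 1 UMI of Xcr1 or Clec9a and at least 5 UMIs of Cst3, no UMI of Fscn1, Cd3d, Cd3e or Cd79a, and fewer than 2 UMIs of C1qa, C1qb and C1qc per 1000. A barcode string found in several libraries of a tumor line was kept only where it had most UMIs. Of 28678 deposited barcodes, 229 passed and are called cDC1-gated here. They comprised 25 from MC38 tumors and 204 from Panc02-SIY tumors.

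The 16 libraries formed 4 groups of 4. MC38 is a mouse colorectal carcinoma line. Panc02-SIY derives from pancreatic adenocarcinoma and carries SIY as a model antigen, and both were grown under the skin of C57BL/6J mice aged 6 to 8 weeks. RT tumors were harvested 24 h after 12 Gy and NT tumors were left untreated. All groups shared the mouse strain and the sort for live CD45+ cells, and the labels name no transgenic or Cre strain. The labels list 4 replicates a group while the methods describe 3 animals, so p-values measure only the spread between libraries. The libraries held 4829078 to 9833668 UMIs in MC38 NT, 3240877 to 10121198 in MC38 RT, 6561383 to 43776342 in Panc02-SIY NT and 5327146 to 26824513 in Panc02-SIY RT. A cDC1-gated barcode held a median of 26839 UMIs in MC38 and 13953.5 in Panc02-SIY.

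cDC1 are the dendritic cells that take up material from dying cells and present it on MHC class I to CD8 T cells, a process named cross-presentation. They depend on the transcription factors IRF8 and BATF3, sense cell death through the C-type lectin CLEC9A and double-stranded RNA through TLR3, and follow the chemokine XCL1 through the receptor XCR1. Type 2 conventional dendritic cells (cDC2) mainly present on MHC class II to CD4 T cells. On maturation either subset turns on CCR7 and FSCN1, loses much of its subset program and leaves the tissue for the lymph node. The limit on Fscn1 was meant to leave such cells out. In MC38 NT replicate 1, however, 1 of the 4 members held all 103 UMIs of Ccr7, with 0 of Fscn1.

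The label held for part of the members. Naaa, a lysosomal amidase typical of cDC1, had a UMI in 179 members (78.2%), and Cadm1, an adhesion molecule of cDC1, in 105 (45.9%). Neither was detected in 35 members (15.3%). Both Xcr1 and Clec9a had a UMI in 83 members (36.2%), while 92 (40.2%) entered the gate on exactly 1 UMI of the pair. Among barcodes with T cell genes, which should lack the receptors, 5.73% carried an Xcr1 or Clec9a UMI in Panc02-SIY at a median of 7461 UMIs and 2.26% in MC38 at 10138, so a single UMI of the pair is weak evidence. At the other limits, 6 members held 5 or 6 Cst3 UMIs and 6 barcodes just outside held 3 or 4. A further 21 barcodes failed only on Fscn1 and 916 only on the C1q genes, and 15 members held 1 to 2 C1q UMIs per 1000.

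The members were therefore divided by limits chosen after their values had been seen. The marker-supported barcodes had at least 2 UMIs each of Naaa, of Irf8, and of Xcr1 and Clec9a together, met the limits of no other class, and numbered 100 (43.7% of members, 47.2% of their UMIs). A further 10 members met these marker limits but were placed in one of the other classes, which took precedence. A group of 15 held at least 3 UMIs of Siglech, a receptor of plasmacytoid dendritic cells. Another 22 held at least 5 UMIs of Krt8, Krt18, Col6a1 and Sparc, genes of epithelial and stromal cells, and carried 23.2% of all member UMIs at a median of 49410.5 per barcode. A further 30 held at least 20 UMIs of Lyz2, the lysozyme of monocytes and macrophages, 4 held at least 10 UMIs of S100a8 and S100a9, genes of neutrophils, and 58 remained. Of the 22 keratin/matrix barcodes, 16 had entered on 1 UMI of the pair. The mixture differed between groups. Lyz2 barcodes were 6 of 13 in MC38 NT and 6 of 12 in MC38 RT, but 3 of 101 in Panc02-SIY NT and 15 of 103 in Panc02-SIY RT. The keratin/matrix barcodes were confined to Panc02-SIY, with 12 of 13 untreated ones in NT replicate 4 and 7 of 9 irradiated ones in RT replicate 4.

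**Figure D1:**
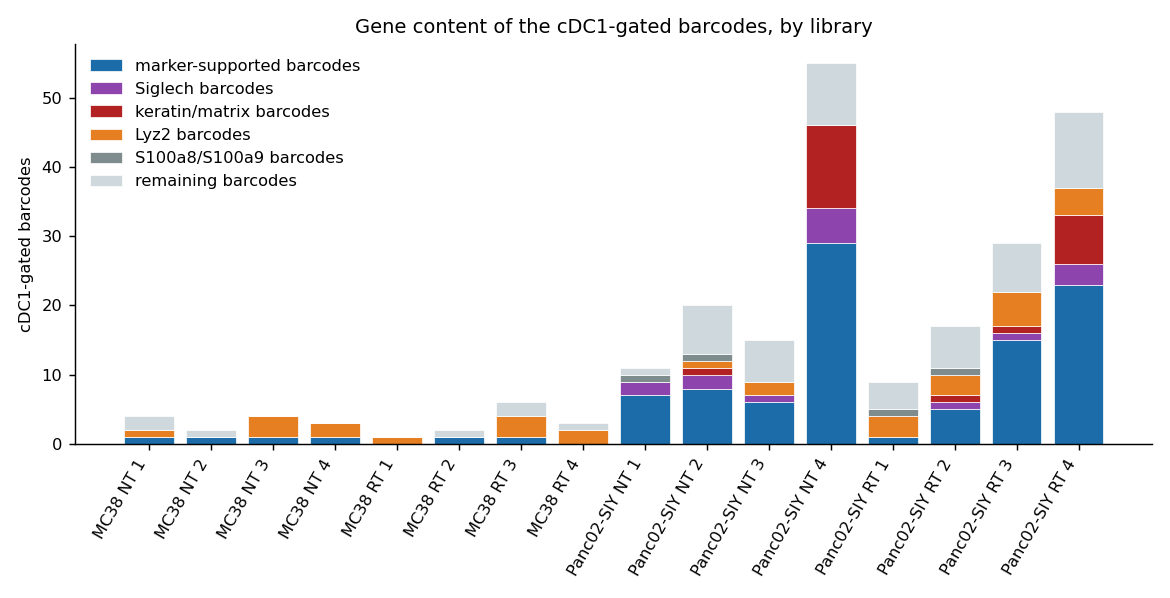
Members of each class (stacked bars, number of cDC1-gated barcodes on the y axis) in each of the 16 libraries (x axis), by group. The marker-supported class numbered 100 of 229 members, and the keratin/matrix class appeared in Panc02-SIY libraries alone.

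Levels over the summed UMIs of each class, in UMIs of a gene per 1000000 UMIs (CPM), showed how far the classes stood apart. The genes used for the division (Xcr1, Clec9a, Naaa, Irf8 and those that define the other classes) describe it and support nothing, and the other genes are descriptions of the barcodes that were divided. Xcr1 reached 630 in marker-supported barcodes, 23.5 in keratin/matrix barcodes and 27.8 in Lyz2 barcodes. Cadm1 reached 307 in marker-supported barcodes and 1.91 in cDC2-gated barcodes. It was also 295 in keratin/matrix barcodes, so Cadm1 did not separate these classes. Wdfy4, which cross-presentation requires, was at 812 in marker-supported barcodes, 121 in cDC2-gated barcodes and 4.51 in keratin/matrix barcodes. Batf3, the partner of IRF8, was at 247, 66.6 and 5.41 in the same order. Tlr3 reached 241 in marker-supported barcodes against 14.3 in cDC2-gated barcodes, and Itgae, which encodes CD103, 236 against 13.1. Batf3 had a UMI in 87% and Zbtb46, a factor of conventional dendritic cells, in 72% of marker-supported barcodes.

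The other classes were led by genes of other cells. Siglech barcodes held Siglech at 2318 CPM, Ccr9 at 1489, Tcf4 at 2952 and Cox6a2 at 1478, all markers of plasmacytoid dendritic cells, with no Xcr1 UMI. Keratin/matrix barcodes held Krt8 at 339, Mgp at 1943 and Nfib at 1997, whereas Ptprc, which encodes the sorted protein CD45, stood at 29.8 against 694 in marker-supported barcodes. Lyz2 barcodes held Lyz2 at 5172 and Apoe, the apolipoprotein of macrophages, at 2330. How far these classes move each result was not tested beyond the values given beside it.

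**Figure D2:**
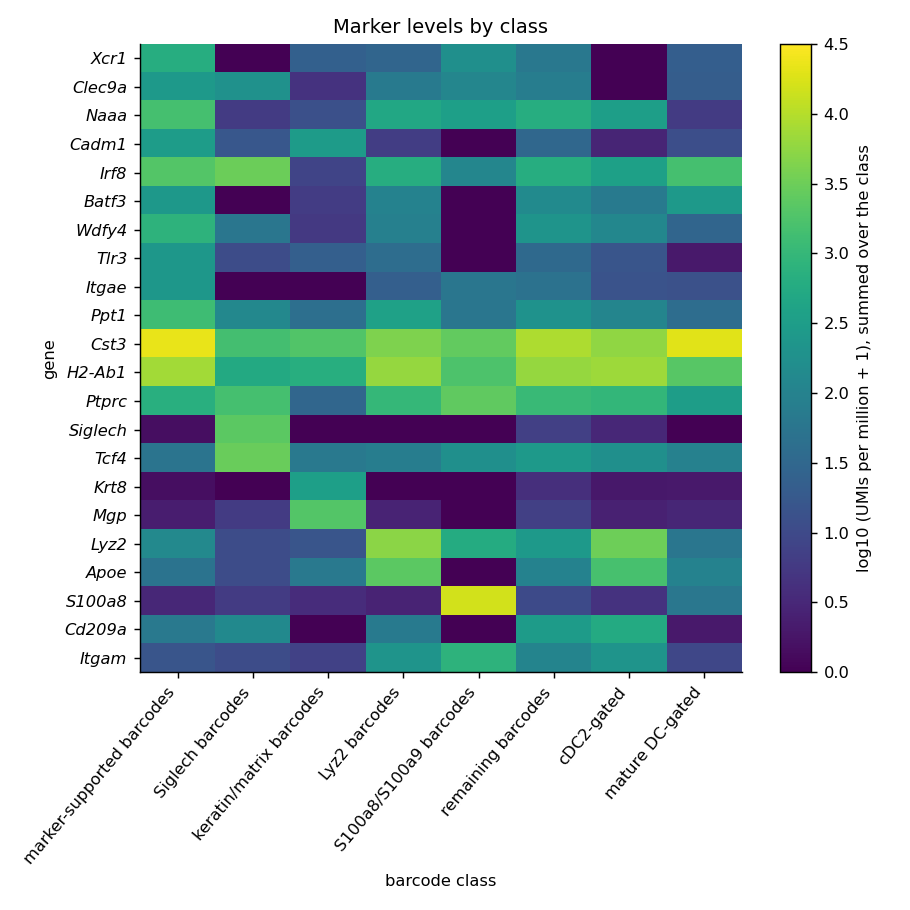
Heatmap of 22 genes (rows) in the 6 classes of members and in the cDC2-gated and mature DC-gated barcodes (columns), with colour for log10 of CPM + 1 over the summed UMIs of each class. Marker-supported barcodes held Wdfy4 at 812 and Tlr3 at 241 CPM, and the Siglech, keratin/matrix and Lyz2 classes were led by other genes.

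Barcode strings were shared between libraries. Of the 25 MC38 members, 24 had strings present in several MC38 libraries and 17 in all 8. The library a string was assigned to held a median of 74.2% of that string's UMIs (44.3% to 91.6%) in MC38 and 95.5% in Panc02-SIY, where 11 of 204 strings were shared. The MC38 members were thus assigned to NT or RT libraries by where most copies lay, and each MC38 value below carries that uncertainty. Without the shared strings 1 MC38 barcode was left, so no MC38 comparison could be run without them. Comparisons between groups used sums over the members of each library and the 13 libraries with at least 3 members, which left out MC38 NT replicate 2 and MC38 RT replicates 1 and 2.

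The first comparison set cDC1-gated against cDC2-gated barcodes of the same library. The cDC2 gate required a UMI of Cd209a or Mgl2, no UMI of Xcr1 or Clec9a and otherwise the same limits, and yielded 193 barcodes, 182 of them in the 13 fitted libraries. The 10 cDC1 gate genes and Cd209a, Mgl2 and Ccr7 were left out, and genes that run with them are not independent of the gates. Levels in paired comparisons are CPM on scaled library sizes. Calls came from edgeR's quasi-likelihood test and required a fold change over 1.3 together with an adjusted p under 0.1. Of 6259 genes tested over 13 libraries, 539 (8.61%) were called, 180 higher (2.88%) and 359 lower (5.74%) in cDC1-gated barcodes. The median log2 difference of all genes was -0.00. The count fell to 267 without Panc02-SIY RT replicate 4, to 358 without RT replicate 3 and to 343 without NT replicate 3 of that line. The balance turned without a filter on low counts, which gave 679 higher and 495 lower of 15662 genes.

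Genes of cDC1 identity separated the gates although none of those tested was part of them. Of 20 tested, 15 were higher and 2 lower, with a median log2 difference of 1.17. Irf8 ranged from 201 over a median of 1065 to 2522 CPM in cDC1-gated barcodes and from 137 over 351 to 613 CPM in cDC2-gated barcodes. The cDC1-gated values of MC38 NT replicate 4 and MC38 RT replicate 4 fell within the cDC2 range. Irf8 was higher in 12 of 13 libraries, by 1.60 ± 0.26 (log2, SE; adjusted p = 0.00273, edgeR). Naaa ranged from 209 over 823 to 1503 CPM in cDC1-gated barcodes and averaged 347 ± 213 CPM (SD, n = 13) in cDC2-gated ones. It was higher in 13 of 13 libraries (log2 1.16, SE 0.20, adjusted p = 0.00182, edgeR). The palmitoyl-protein thioesterase gene Ppt1, at 556 against 121 CPM, differed by 2.12 (SE 0.23). Tlr3 stood at 111 against 12.9 CPM (log2 2.80) and Itgae at 112 against 12.3 CPM (log2 2.83). Wdfy4, at 342 against 122 CPM, Batf3 (log2 1.03), Id2 (log2 1.32), a repressor needed for cDC1 development, and Flt3 (log2 0.83), the receptor for the dendritic cell growth factor, were also higher. The 2 lower members were Zeb2 (log2 -0.84), a repressor that favors cDC2 and monocytes, and Nfil3 (-0.87), which acts upstream of Id2. Over the other settings tried, the higher count ran from 6 of 9 tested with barcodes thinned to at most 3000 UMIs to 24 of 29 without a filter on low counts.

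Genes outside the cDC1 list also differed in every library. Ptms stood at 585 against 246 CPM (log2 1.28) and Txn1, which encodes thioredoxin, at 751 against 338 CPM (log2 1.18), each higher in 13 of 13 libraries. Fchsd2, Trim28, Ppp1r11 and Mpeg1, a pore-forming protein of phagocytes, were also higher in every library. Tnfsf9, the ligand of the costimulatory receptor 4-1BB, was lower by 2.74 on the log2 scale at 9.81 against 66.2 CPM. Itgam, which encodes CD11b and is the usual surface marker of cDC2, stood at 89.9 against 212 CPM (log2 -1.49), and Tnip3, an inhibitor of NF-kB, at 120 against 414 CPM (log2 -1.93). Arhgap26, Lilrb4a, Dab2, Fosl2 and Ifi209 were lower in every library as well. Of 4 cDC2 markers outside the gate, Itgam, Sirpa and Clec10a were lower. Of 25 S phase genes listed 8 were tested, and 5 were higher, namely Rrm1, Mcm7, Mcm4, Dut and Mcm3, beside 2.88% of all genes. Dut stood at 93.3 ± 99.5 against 22.9 ± 21.6 CPM (SD, n = 13). Of 5 G2 and mitosis genes tested none was called (median log2 0.82).

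The interferon-stimulated genes went the other way. Of 51 tested, none was higher and 15 were lower (Slfn8, Oas1a, Oas3, Oasl2, Ifitm3, Oas2, Ms4a4c, Parp14, Zbp1, Rtp4, Ifi47, Isg15, Slfn5, Gbp7 and Samhd1), with a median log2 difference of -0.63. Ifitm3, a membrane protein that blocks virus entry, ranged from 656 over 1542 to 5031 CPM in cDC1-gated and from 2834 over 3823 to 4495 CPM in cDC2-gated barcodes. It was lower in 11 of 13 libraries and fell by 1.17 ± 0.22 (log2, SE; adjusted p = 0.00715, edgeR). Oas3, a sensor of double-stranded RNA, stood at 26.1 against 68.7 CPM (log2 -1.53, adjusted p = 0.00273, edgeR). Isg15, a ubiquitin-like modifier, stood at 515 against 689 CPM and was lower in 12 of 13 libraries (log2 -0.95, adjusted p = 0.0626, edgeR). The exception was MC38 RT replicate 4, with 3221 CPM in cDC1-gated and 1340 CPM in cDC2-gated barcodes. The lower count ran from 5 of 32 tested with thinned barcodes to 23 of 49 with at least 2 UMIs of Xcr1 and Clec9a required, and no setting gave a higher gene. Genes of monocytes and macrophages lay on the same side. Lyz2 stood at 1603 against 2864 CPM and was lower in 10 of 13 libraries (log2 -1.36, adjusted p = 0.135, edgeR, not called), and Apoe stood at 803 against 1100 CPM (log2 -1.03, adjusted p = 0.177, edgeR, not called). Of 5 monocyte markers Fcgr1 was called lower (median log2 -0.85), and of 3 macrophage markers tested Adgre1 was (median log2 -1.03). Their part in the interferon-stimulated difference was not tested.

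**Figure D3:**
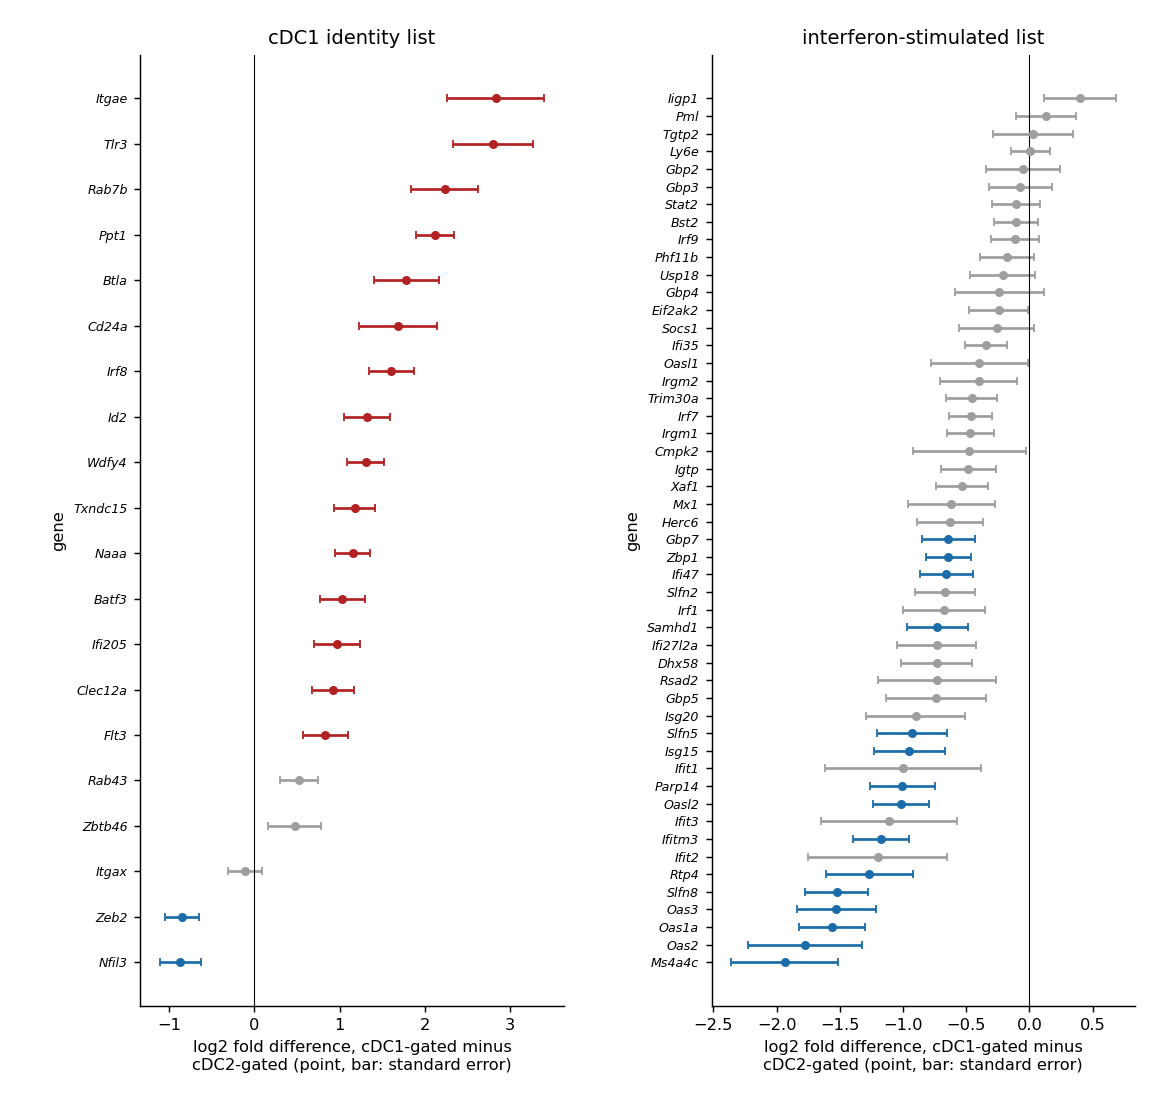
Difference between cDC1-gated and cDC2-gated barcodes (x axis, log2 of cDC1 over cDC2, points with SE bars) over 13 libraries, for the 20 cDC1 identity genes tested (left, one gene a row) and 50 of the 51 interferon-stimulated genes (right). Red marks genes called higher, blue genes called lower and grey genes not called. Irf8 lay at 1.60 and Naaa at 1.16 on the side of cDC1, and Ifitm3 lay at -1.17 and Oas3 at -1.53 on the side of cDC2.

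Interferons act on many of these genes through factors, IRF9 and STAT2 among them, that bind repeats of GAAA spaced by a pair of bases. The letters GAAANNGAAA were searched on both strands (TTTCNNTTTC on the opposite one, with overlapping matches counted) in RefSeq windows of 300 bases, from 250 before to 50 after the gene start (GRCm38.p6). The stretch occurred in 3.993% of 27025 genes, in 24 of 41 listed interferon-stimulated genes with a window (58.5%) and in 2 of 24 cDC1 identity genes (8.33%). Of the 15 lower genes, 11 had a window and 7 a match. A match describes letters and does not show a bound site. Stretches of 30 bases around a match are printed for 4 lower genes in the direction of the gene, with that match in capitals. Isg15 held 3 overlapping matches, of which the middle one is in capitals, and Ifitm3 held 2, of which the second is printed. The stretches cover chr4:156200871-156200900 (minus strand, match 72 bases before the start) for Isg15, chr5:120777715-120777744 (minus strand, 75 before) for Oas3, chr3:142530273-142530302 (plus strand, 53 before) for Gbp7 and chr7:141010706-141010735 (minus strand, 20 after) for Ifitm3.
Isg15: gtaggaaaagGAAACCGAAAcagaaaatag
Oas3: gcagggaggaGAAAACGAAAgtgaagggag
Gbp7: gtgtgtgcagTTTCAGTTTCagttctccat
Ifitm3: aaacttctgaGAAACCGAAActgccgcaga

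Genes of antigen presentation were examined by MHC class. Of 25 class I pathway genes, 3 were higher in cDC1-gated barcodes and none lower, beside 2.88% and 5.74% of all genes. They were Psmb9 (log2 0.52), a subunit of the immunoproteasome, Psme2 (0.39), its activator, and Pdia3 (0.52), a chaperone of the peptide-loading complex. Of 13 class II genes none was higher, and Ctss, the protease that trims the invariant chain, was lower (log2 -0.72). Of 14 ligands that stimulate or restrain T cells, Btla was higher (log2 1.78) and Tnfsf9, Vsir, Lgals9, Sirpa and Icosl were lower. Cdkn1a, the cell cycle inhibitor induced by p53, stood at 466 ± 465 against 940 ± 508 CPM (SD, n = 13) and was lower in 12 of 13 libraries (log2 -1.48, adjusted p = 0.0968, edgeR).

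The second paired comparison set cDC1-gated against mature DC-gated barcodes (Fscn1 and Ccr7 with at least 1 UMI each, otherwise the same limits; 68 barcodes) in 8 libraries, which held 60 mature DC-gated and 176 cDC1-gated barcodes. Of 4383 genes tested, 1996 (45.5%) were called, 1093 higher (24.9%) and 903 lower (20.6%), around a median log2 difference of 0.12 for all genes. All 26 dendritic cell maturation genes tested were lower (median log2 -3.51). Cacnb3, a calcium channel subunit, ranged from 0 to 10.4 CPM in cDC1-gated and from 355 to 1263 CPM in mature barcodes, with no overlap (log2 -6.96). Relb, the NF-kB subunit that drives maturation, stood at 26.5 against 493 CPM. Socs2, Tmem123, Traf1 and Birc2 were lower in every library. Of 15 chemokines and cytokines tested, 3 were higher and 5 lower, and the median log2 difference was 1.42. The T cell chemokine Ccl22 stood at 17.3 against 2238 CPM (log2 -7.28, adjusted p = 0.000142, edgeR), Ccl5 at 104 against 3625 CPM and Il12b, the interleukin-12 subunit, at 26.9 against 1198 CPM.

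In the other direction Naaa stood at 211 to 1460 CPM in cDC1-gated and 0 to 30.8 CPM in mature barcodes (log2 6.87, adjusted p = 9.15e-12, edgeR). Mef2c and March1, the ligase that removes surface MHC class II, had no UMI in mature barcodes and were at least 27.8-fold and 35-fold higher against a floor of 3 counts over the group. Ccr2, a receptor for inflammatory chemokines, was higher in 8 of 8 libraries. The list counts that follow stand beside 24.9% of all genes called higher and 20.6% called lower. Of 12 class II genes 7 were higher, including Cd74, the invariant chain, at 13789 against 8360 CPM (log2 0.83) and H2-DMb1 at 760 against 58.2 CPM. Of 25 class I genes 4 were higher, among them Calr (log2 1.66), and 15 lower, among them H2-K1 at 1488 against 3374 CPM (log2 -1.20). Of 40 interferon-stimulated genes 17 were higher and 3 lower, with Ifitm3 at 1962 against 654 CPM (log2 1.80). Of 18 cDC1 identity genes tested, 10 were higher and 6 lower, with a median log2 difference of 1.72. Batf3 (log2 -1.08, adjusted p = 0.0155, edgeR) and Id2 (-1.71) were lower than in mature barcodes. Irf8 was lower by 0.51 (adjusted p = 0.0729, edgeR), but stood 0.0599 higher with no call when 2 UMIs of Xcr1 and Clec9a were required. All 4 monocyte markers tested were higher in the cDC1-gated sums, which contained part of the 30 Lyz2 barcodes.

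Radiation was compared within each tumor line. In Panc02-SIY no gene of 8678 tested was called (0%), and the smallest adjusted p was 0.150 in edgeR's quasi-likelihood test. At an unadjusted p below 0.05 there were 453 genes, and DESeq2 called 42. The edgeR count was 25 without RT replicate 4 and 19 without NT replicate 3. Levels in the comparisons between groups are CPM over the summed members of a library, again on library sizes scaled by edgeR's TMM, while levels of classes, of marker sums and of libraries outside the fit are unscaled. Cdkn1a stood at 0, 31.7, 222 and 34.8 in NT replicates 1 to 4 and at 598, 363, 594 and 476 in RT replicates 1 to 4. The groups did not overlap, as was the case for 5.01% of all genes, and the means were 72.2 ± 101 and 508 ± 112 (SD, n = 4). The difference of 2.78 ± 0.84 (log2, SE) had an adjusted p of 0.683 in edgeR, 0.0799 in DESeq2 and 8.89e-09 in edgeR with barcodes thinned to at most 3000 UMIs. Without NT replicate 3, the untreated library with the highest level, the difference was 4.18 and called (adjusted p = 0.0173, edgeR). That library also held the summed NK cell markers (4 genes) at 1788 CPM. The other untreated libraries held them at 16.7 to 78.2 and the irradiated ones at 13.1 to 159, and their part was not tested. Ccng1, another p53 target, stood at 119, 54.0, 58.7 and 43.7 and then 126, 68.2, 128 and 126, so its groups overlapped.

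Ifitm3 stood at 682, 990, 688 and 1242 in NT and at 2754, 1885, 1594 and 1620 in RT, again without overlap (log2 1.11, adjusted p = 0.365, edgeR). The chemokine gene Cxcl10, whose product draws CD8 T cells, stood at 0, 15.9, 172 and 522 and at 771, 169, 200 and 784, with overlap. Irf8 stood at 2472, 1473, 1632 and 1383 in NT and at 952, 1092, 1101 and 1241 in RT, each irradiated library below each untreated one, with no call. The medians of the log2 differences were 1.08 over 53 interferon-stimulated genes, 0.68 over 37 p53 targets, 0.91 over 22 chemokines and cytokines and -0.67 over 29 cDC1 identity genes, beside -0.03 over all genes, and no member of these lists was called. A gate of at least 2 UMIs of Xcr1 and Clec9a, chosen after seeing the data, called 89 of 7448 genes (1.19%), 85 of them higher (1.14%). That fit held 7 libraries, with 4 in NT and 3 in RT and none of MC38, and with the original gate the same 7 libraries gave 1 call. Among 48 interferon-stimulated genes 15 were called, all higher (Ifit1, Ifit2, Ifit3, Ifi47, Ifitm3, Oas3, Oasl2, Rtp4, Xaf1, Parp14, Gbp7, Slfn2, Slfn8, Ms4a4c and Samhd1). The count was 12 with thinned barcodes, 6 without the keratin/matrix barcodes, 4 without a filter on low counts, 2 each with DESeq2 and a replicate block, and 0 with RLE scaling, every barcode kept, doublet scores removed or at least 10 barcodes a library. Markers of other cells moved beside these values. The summed macrophage markers (7 genes, 3 of them the C1q genes that the gate limits) were at 10.2, 180, 245 and 341 CPM in NT and at 735, 369, 473 and 531 in RT. The summed monocyte markers (5 genes) were at 1982, 1988, 3264 and 1304 and then at 7846, 4611, 3913 and 2244. Their part in the differences was not tested.

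The 93 marker-supported barcodes of the 7 Panc02-SIY libraries with at least 5 of them gave a second view, as a description without a test because the division followed the values. They held 1199262 UMIs from 50 barcodes in 4 NT libraries and 781328 UMIs from 43 barcodes in 3 RT libraries, RT replicate 1 having 1 such barcode. Of 7833 genes with at least 15 UMIs, 5.67% lay higher in every RT than in every NT library and 2.45% lower. Among 49 interferon-stimulated genes 26 (53.1%) lay higher and 1, Ifi35, lower, with a median log2 difference of 1.84 beside 0.03 for all genes. Ifitm3 stood at 752, 182, 184 and 263 CPM in NT and at 1081, 1151 and 1042 in RT. Ms4a4c stood at 0, 5.86, 0 and 11.3 and then at 144, 137 and 159. Gbp2, a GTPase induced by interferon gamma, stood at 27.8, 23.5, 12.7 and 71.3 and then at 127, 631 and 354. Rsad2, which encodes the antiviral enzyme viperin, had 0 UMIs in NT and 94 in RT. Irf1 lay 2.74-fold and Bst2 2.06-fold higher in the pooled counts. Isg15 (58.4 and 278 pooled) and Irf7 (69.2 and 191) overlapped between the groups.

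Chemokines, cytokines and p53 targets were described in the same way. Of 19 chemokines and cytokines, Cxcl9, Cxcl10, Il1b and Tgfb1 lay higher in RT (21.1%, beside 5.67% of all genes) and none lower. Cxcl9 stood at 111, 569, 203 and 928 in NT and at 1410, 1731 and 1222 in RT, and Cxcl10 at 0, 0, 0 and 31.3 and then at 220, 326 and 493. Il12b, by contrast, overlapped, with 0, 17.6, 0 and 250 and then 76.0, 5.09 and 148. Of 33 p53 targets Cdkn1a, Sesn2, Tigar and Sulf2 lay higher (12.1%) and Cd9 lower (3.03%, beside 2.45% of all genes). Cdkn1a stood at 0, 0, 146 and 33.8 in NT and at 304, 586 and 620 in RT, which is 13.5-fold in the pooled counts (50 and 440 UMIs). Bax, which promotes cell death (204 and 357 pooled), and Mdm2, the ligase that degrades p53, overlapped. No DNA repair gene of 23 lay apart in either direction.

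These barcodes had been chosen for Naaa, Irf8, Xcr1 and Clec9a, so the levels of these 4 genes in them say nothing of a change in the cDC1 program. Of 29 identity genes, Rab43 lay higher in RT (3.45%) and Ppt1, Tlr11 and Txndc15 lower (10.3%, beside 2.45% of all genes), and the median log2 difference was -0.06. Cadm1 (435 and 204), Batf3 (258 and 271) and Tlr3 (262 and 241) overlapped. Tlr11, a sensor of microbial profilin, stood at 125, 76.2, 108 and 90.1 in NT and at 25.3, 50.9 and 49.3 in RT. Of 13 class II genes 1 lay higher (7.69%, beside 5.67% of all genes). Of 25 class I genes 2 lay higher (8%) and 1 lower (4%, beside 2.45% of all genes). Among 15 receptors for uptake of dead cells and antibody complexes, Fcgr1, Fcer1g and Cd300lf lay higher (20%), with Fcer1g at 148 and 513 pooled. Of 14 costimulatory and inhibitory ligands Pvr, Lgals9 and Cd200 lay higher (21.4%), while Cd80, Cd86 and Cd40 overlapped.

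Some markers of other cells lay higher in RT in the same barcodes, where 5.67% of all genes did. Of 5 monocyte markers Plac8 and Fcgr1 did (median log2 1.26), of 3 plasmacytoid markers Bst2 and Tcf4 (median 1.04), and of 5 cDC2 markers Cd209a (median 2.21). Cd209a, a lectin of cDC2 and monocyte-derived cells, stood at 0, 11.7, 0 and 2.50 CPM in NT and at 312, 204 and 34.3 in RT. Plac8 stood at 849, 281, 596 and 531 and then at 988, 1242 and 1331. None of 5 macrophage markers and neither of the 2 mature DC markers measured lay apart. The gate limits the C1q genes and excludes Fscn1, and barcodes with at least 20 Lyz2 UMIs were placed in another class. Because the selection held such content down, these counts cannot decide whether it changed. The part of these markers in the interferon-stimulated difference was not tested.

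**Figure D4:**
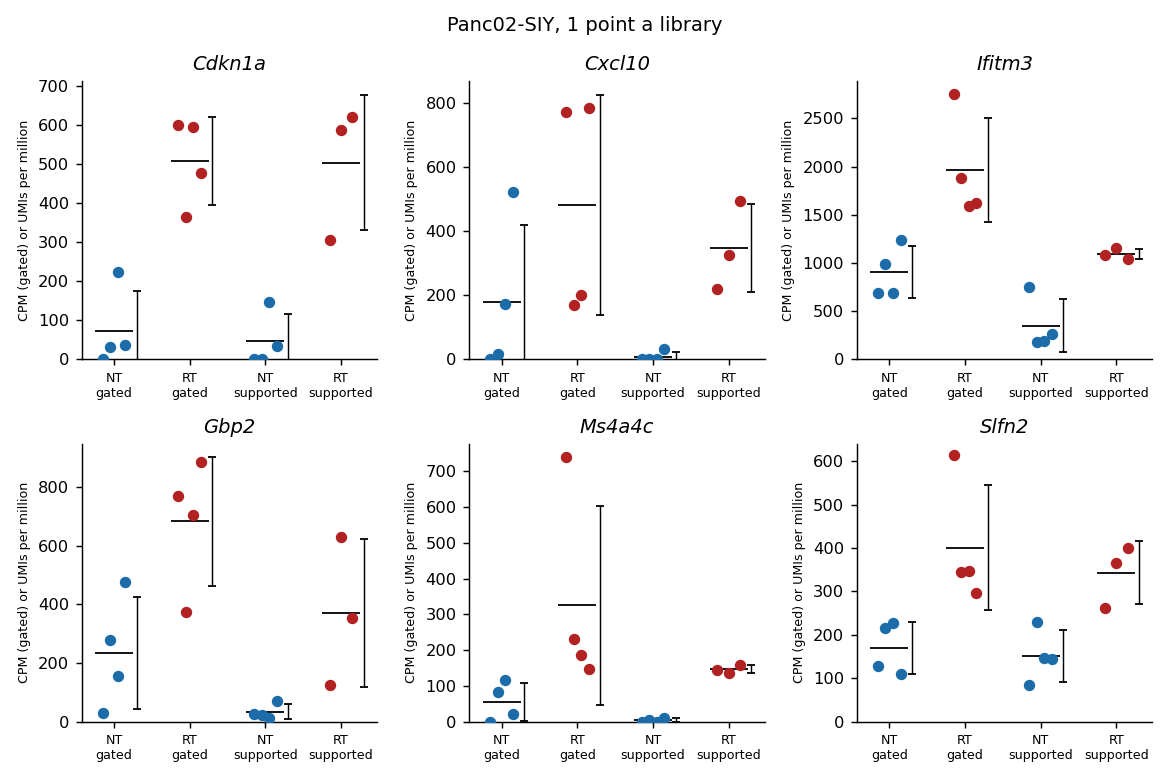
Levels of Cdkn1a, Cxcl10, Ifitm3, Gbp2, Ms4a4c and Slfn2 (y axes from 0, CPM, scaled for gated and unscaled for marker-supported barcodes) in Panc02-SIY NT and RT libraries (1 point each), over all cDC1-gated barcodes (4 NT and 4 RT libraries) and over marker-supported ones (4 NT and 3 RT libraries), with the mean as a line and the SD as a bar that stops at 0. In marker-supported barcodes Ifitm3 lay between 182 and 752 CPM in NT and between 1042 and 1151 CPM in RT.

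In MC38 no gene of 8678 was called after radiation (0%; smallest adjusted p 0.736, edgeR quasi-likelihood test), with 434 at an unadjusted p below 0.05 and none by DESeq2, and 11 were called without RT replicate 3, a fit in which the irradiated arm was 1 library of 3 members assumed to vary like the other groups. The fit rested on NT replicates 1, 3 and 4 and RT replicates 3 and 4. Ccng1 stood at 0, 22.2 and 0 CPM in NT and at 165 and 65.1 in RT (log2 3.62, adjusted p = 0.736, edgeR), and Bax, a pore-forming death protein, at 111, 282 and 98.6 and then at 542 and 456. Groups of 3 and 2 libraries did not overlap in 15.9% of all genes. Isg15 stood at 133, 311 and 338 in NT and at 660 and 3011 in RT, and Cdkn1a at 710, 415 and 98.6 and then at 872 and 1611. The median log2 difference of 53 interferon-stimulated genes was 1.06 beside 0.00 over all genes. The summed macrophage markers, the limited C1q genes included, were at 4250, 4062 and 4545 CPM in NT and at 1121 and 1711 in RT (median log2 -1.09). The summed monocyte markers were at 3715, 4398 and 6519 CPM and then at 4810 and 9516 (median log2 0.65). The part of these markers in the radiation values was not tested. The 3 mature DC markers tested had a median of -3.30. Ccr7 stood at 1142 CPM in NT replicate 1 and 48.8 in RT replicate 4, with no UMI in the other fitted libraries. In NT replicate 1 all Ccr7 UMIs lay in 1 of 4 members, and in RT replicate 4 in 1 of 3. The test of a different radiation effect in the 2 lines called no gene by edgeR (344 at an unadjusted p below 0.05) and 1 by DESeq2.

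Between untreated tumors, 248 of 8678 genes (2.86%) were called, 139 higher (1.6%) and 109 lower (1.26%) in MC38. The median log2 difference of all genes was -0.23, and the count was 148 without MC38 NT replicate 4 and 161 without MC38 NT replicate 3 or Panc02-SIY NT replicate 2. The balance turned with barcodes thinned to at most 3000 UMIs, which gave 44 higher and 136 lower of 3337 genes. Macrophage genes led the higher side. Apoe stood at 3150, 2882 and 2352 CPM in MC38 NT replicates 1, 3 and 4 and at 0, 69.8, 67.1 and 59.4 in Panc02-SIY NT (log2 5.65, adjusted p = 0.00906, edgeR). Trem2, a lipid receptor of macrophages, stood at 174 against 0.793. C3ar1, Cfb, Clec5a, Zmynd15 and F10 were also higher. Of 29 cDC1 identity genes 9 were lower and none higher. Wdfy4 stood at 118 ± 20.9 (SD, n = 3) against 605 ± 101 (SD, n = 4; log2 -2.34, adjusted p = 0.00213, edgeR) and Naaa at 328 ± 41.1 against 1193 ± 252. Cd8a had no UMI in MC38 and was at least 6.96-fold lower against 3 counts over the group. These values stood beside summed macrophage markers, the limited C1q genes included, at 4250, 4062 and 4545 CPM in the fitted MC38 NT libraries and 10.2 to 341 in Panc02-SIY NT. The summed monocyte markers were at 3715, 4398 and 6519 CPM against 1304 to 3264. The summed plasmacytoid markers (5 genes) were at 295, 721 and 490 CPM against 844 to 2144, and Tcf4 was called lower (list median log2 -2.48). Keratin/matrix barcodes held 28.6% of the member UMIs in Panc02-SIY NT and 0% in MC38 NT. Without the keratin/matrix barcodes 10 identity genes were lower and 2 higher. The summed mature DC markers (5 genes) were at 1704 CPM in MC38 NT replicate 1, at 91.8 in replicate 4 and lower still in replicate 3, and at 10.2 to 47.5 in Panc02-SIY NT. In MC38 NT replicate 1 the most abundant of them, Ccr7, had UMIs in only 1 of 4 members. Of the 3 mature DC markers tested none was called, and each had an unadjusted p below 0.05 (median log2 5.82). MC38 NT replicate 2, outside the fit with 2 members, held Apoe at 236 and Naaa at 1114, unlike the 3 libraries in it. The part of these markers and of the Lyz2 barcodes (6 of 13 MC38 NT members) in these calls was not tested.

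MHC class II genes were higher in MC38 in both states. Untreated, 7 of 13 were called higher (Lgmn, Ctss, H2-DMb1, H2-Eb1, Cd74, H2-Ab1 and H2-Aa) beside 1.6% of all genes, and 3 remained higher without the keratin/matrix barcodes of Panc02-SIY. After radiation 8 were called higher, adding H2-DMb2, beside 1.07% of all genes, and 6 without those barcodes. Cd74 stood at 23629 and 27046 CPM in MC38 RT replicates 3 and 4 and at 8106, 10803, 10674 and 8990 in Panc02-SIY RT (log2 1.38, adjusted p = 0.00154, edgeR). H2-Eb1, a class II beta chain, stood at 8854 and 9211 against 1605, 3195, 2775 and 2739 (log2 1.80). Neither pair of groups overlapped, which held for 27.7% of all genes in groups of 2 and 4 libraries. With barcodes thinned to at most 3000 UMIs, 3 of 12 class II genes were called after radiation, and 2 of 12 without it. Beside the irradiated values, the summed macrophage markers were at 1121 and 1711 CPM in MC38 RT replicates 3 and 4 and at 369 to 735 in Panc02-SIY RT. The monocyte markers were at 4810 and 9516 against 2244 to 7846, and Lyz2 barcodes held 43.7% and 10.9% of the member UMIs over all 4 libraries of each group. MC38 RT replicate 3 held 1 marker-supported barcode and replicate 4 held 0. Their part in the class II difference was not tested.

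Between irradiated tumors 124 genes (1.43%) were called, 93 higher (1.07%) and 31 lower (0.357%) in MC38, around a median log2 difference of -0.24. The balance turned here too, with 24 higher and 37 lower in thinned barcodes and 219 higher and 225 lower with every barcode kept. The count was 36 without MC38 RT replicate 4, which left 1 library in that arm, and 61, 51 and 68 without Panc02-SIY RT replicates 2, 3 and 4. The class I gene H2-D1 stood at 3438 against 1303 CPM (log2 1.39) and Psmb8 at 1268 against 646. The heat shock genes Hspa1a and Hspa1b, and Trem2, Clec5a, Nt5dc2, Adap2os and AY036118 were higher. Arsb, Hes1, Sept3, Esyt2, Rell1, Ptprs and Man2a1 were lower. Of 53 interferon-stimulated genes, Phf11b, Usp18, Slfn2 and Oas1a were higher. Il1b, the inflammatory cytokine, stood at 6375 against 1330 (log2 2.26, adjusted p = 0.0919, edgeR).

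The frequency of cDC1-gated barcodes was compared last. They made up 2.42%, 1.60%, 1.86% and 0.984% of kept barcodes in MC38 NT replicates 1 to 4 and 1.33%, 1.65%, 2.67% and 0.822% in MC38 RT. In Panc02-SIY the shares were 1.29%, 1.20%, 1.10% and 1.57% in NT and 1.12%, 0.939%, 1.42% and 1.78% in RT. The groups overlapped in both lines, and the means of 1.29% and 1.31% in Panc02-SIY gave p = 0.914 (exact permutation test, two-sided). Among cDC1-, cDC2- and mature DC-gated barcodes, cDC1-gated ones made up 50%, 76.9%, 51.7% and 79.7% in Panc02-SIY NT and 36.0%, 37.0%, 47.5% and 45.3% in RT. Each irradiated library lay below each untreated one, and the difference was -23.1 percentage points (64.6 ± 15.9 against 41.4 ± 5.82, SD, n = 4; exact permutation p = 0.0286, the smallest that 4 against 4 libraries allow; 0.114 adjusted over 8 tests). With barcodes thinned to 2000 UMIs the groups overlapped (exact permutation p = 0.143), with RT replicate 3 at 43.2% above NT replicates 1 and 3 at 31.2% and 42.9%. In MC38 the share averaged 23.4% in NT and 27.8% in RT (exact permutation p = 0.571). Untreated MC38 lay below untreated Panc02-SIY (exact permutation p = 0.0286, 0.114 adjusted), with no overlap between libraries.

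Counting marker-supported barcodes alone, as a description, gave 38.9%, 57.1%, 30% and 67.4% of marker-supported, cDC2-gated and mature DC-gated barcodes in Panc02-SIY NT and 5.88%, 14.7%, 31.9% and 28.4% in RT. NT replicate 3 lay below RT replicate 3, so these shares overlapped. Of all kept barcodes they made up 0.818%, 0.479%, 0.441% and 0.829% in NT and 0.124%, 0.276%, 0.732% and 0.851% in RT. The cDC2-gated barcodes made up 0.467%, 0.299%, 0.882% and 0.172% of kept barcodes in Panc02-SIY NT (4, 5, 12 and 6 barcodes) and 1.49%, 0.994%, 1.27% and 1.63% in RT (12, 18, 26 and 44 barcodes), each irradiated library above each untreated one. The cDC1-gated share of kept barcodes overlapped, as given above, and the mature DC-gated barcodes made up 0.818%, 0.0599%, 0.147% and 0.229% in NT and 0.496%, 0.607%, 0.293% and 0.518% in RT, with overlap. Sorted cells give shares and not numbers per tumor.

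**Figure D5:**
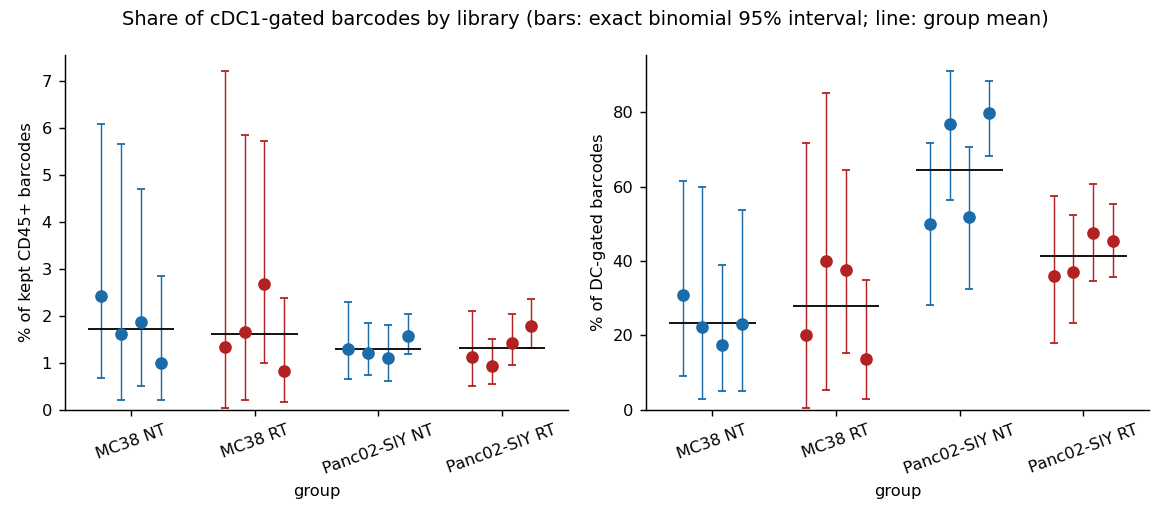
Share of cDC1-gated barcodes among kept CD45+ barcodes and among DC-gated barcodes (y axes, percent) in each library (points, with exact binomial 95% intervals as bars) of the 4 groups, with group means as lines. The shares of DC-gated barcodes in Panc02-SIY ran from 50% to 79.7% in NT and from 36.0% to 47.5% in RT.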

How the data were processed

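CD45+ cells were processed with the 10x 3′ v3.0 kit, and per the labels the authors used bcl2fastq 2.20.0 and Cell Ranger 3.1.0 with mm10. The deposited matrices hold raw UMI counts of 31053 features per barcode. UMI counts were summed per library over gated barcodes and tested with edgeR 4.0.16 (R 4.3.3, TMM, filterByExpr with a minimum count of 3 and total of 15, robust glmQLFit and glmQLFTest), with Benjamini-Hochberg adjustment over all genes. The study's methods compare cells, and sums per library replaced that. The 4 groups shared a fit, and paired comparisons had the library as covariate. Shares were compared with exact permutation tests (scipy 1.17.1) over 16 libraries. Intervals and floors cover counting error only. DESeq2 1.42.0, RLE scaling, no count filter, thinning, Scrublet scores (scanpy 1.11.5), a replicate block and leaving out each library were alternatives. A stricter gate of 2 UMIs and leaving out keratin/matrix barcodes were added after seeing the data. No doublets were removed in the main analysis. The script was tested on simulated data. Members and gene lists were chosen with earlier results of these data known. Named genes were the markers, key genes fixed by name, called list members and, per comparison, up to 8 called genes a direction with the largest change, no overlap and at least 20 CPM. A few genes that this rule named are not reported here.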

Additional observations from a re-analysis of the deposited data

Results flagged for a closer look

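Among 68 group and measure pairs with 4 libraries, 7 held a library far from the other 3. The nominal chance rate of about 1 in 20 does not hold where the other 3 had no UMI, as for Ccr7. There any UMI in 1 library is flagged, so the 7 cannot be weighed against that rate. All were in Panc02-SIY, and gene levels in MC38 were not tested, with 3 and 2 fitted libraries a group. Cdkn1a was highest in NT replicate 3, at 222 CPM (UMIs of the gene per 1000000 UMIs of the members, on scaled library sizes). Ccng1 was lowest in RT replicate 2, at 68.2 CPM. Clec9a, a gate gene, was lowest in RT replicate 1, at 70.8 CPM. Ccr7, the migration receptor, was highest in NT replicate 4 at 3.41 CPM and in RT replicate 4 at 14.4 CPM. The other Panc02-SIY libraries had no Ccr7 UMI. MC38 NT replicate 1 held 1142 CPM and MC38 RT replicate 4 held 48.8 CPM, each from 1 member. Il12b was highest in NT replicate 4, at 137 CPM. The Siglech barcodes held 24.0% of the member UMIs in NT replicate 1, the highest share of the 4 untreated libraries. No cause was tested for these values.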

How the results depend on the processing

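The members number 229, 25 of them in MC38, and how far depth limits the differences that can be seen was not tested. For Panc02-SIY irradiated against untreated, against 0 called genes, DESeq2 gave 42, no filter on low counts 48, every barcode kept 3, thinning to at most 3000 UMIs 80, removing the highest doublet scores 1, libraries with at least 10 barcodes 1, a gate of 2 UMIs 89 and leaving out the keratin/matrix barcodes 68. For MC38 irradiated against untreated, no filter gave 6 and thinning 10. For untreated MC38 against Panc02-SIY, every barcode kept gave 448, doublet removal 154 and no keratin/matrix barcodes 392. For irradiated MC38 against Panc02-SIY, DESeq2 gave 243, every barcode kept 444, thinning 61 and no keratin/matrix barcodes 193. For the interaction, DESeq2 and thinning each gave 1. Against cDC2-gated barcodes, no filter gave 1174, thinning 127, at least 10 barcodes 954 and a gate of 2 UMIs 1017. Against mature barcodes, no filter gave 3351 and thinning 487. Without 1 library each, the counts ran from 0 to 25, 0 to 11, 148 to 287, 36 to 152, 0 to 1, 267 to 704 and 1635 to 2221 in the same order. The causes were not tested, apart from fewer genes or libraries entering some fits.

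With a replicate block, the Panc02-SIY count was 30, the MC38 count 1 and the interaction count 1. Same-numbered Panc02-SIY libraries correlated from -0.03 to 0.59, 2 of 4 pairs over 0.1, and 5 of 8 libraries correlated best with their own number. The keratin/matrix barcodes also lay mostly in replicate 4 of both Panc02-SIY groups. The study's methods name no pairing, and whether same-numbered libraries share an origin was not tested.

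Differences in the share of kept barcodes, in percentage points, turned sign. Keeping every barcode gave -0.0196 in Panc02-SIY after radiation, -0.484 between untreated lines and -0.627 between irradiated lines (the last 2 with adjusted p = 0.0457, exact permutation test). Doublet removal gave -0.0474 in Panc02-SIY and 0.182 in MC38. The gate of 2 UMIs gave -0.150 in Panc02-SIY and -0.210 between irradiated lines. Thinning to 2000 UMIs gave -0.271 in Panc02-SIY, -0.441 between untreated and -0.489 between irradiated lines. Without 1 library the differences ran from -0.133 to 0.147 in Panc02-SIY (-0.00837 without NT replicate 2, -0.0402 without NT replicate 3, -0.0123 without RT replicate 3), from -0.448 to 0.167 in MC38 (0.137 without NT replicate 1) and from -0.0422 to 0.573 between irradiated lines. Among DC-gated barcodes, keeping every barcode gave -23.2 in Panc02-SIY after radiation, -42.7 between untreated and -21.4 between irradiated lines (adjusted p = 0.0457 each, exact permutation test), and -1.94 in MC38, where the gate of 2 UMIs gave -2.36 and thinning -0.962. In Panc02-SIY, thinning gave -26.3 (exact permutation p = 0.143, 0.381 adjusted), a Cst3 limit of 2 UMIs -21.7 (p = 0.0571, exact) and same-numbered pairs -23.1 (exact p = 0.125).

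Of 5378 values for 275 called pairs of gene and comparison, 4680 kept direction and call, 694 lost the call and 4 turned sign, all against mature barcodes. With the gate of 2 UMIs these were Ctss at -0.115, Sirpa at -0.140 and Irf8 at 0.0599, and with at least 10 barcodes Sirpa at -0.193. The gate of 2 UMIs and the limit of 10 barcodes left too few MC38 libraries for a fit across genes there.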
